A study of Mus musculus with 12 samples.

Results

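The liver changes shared by 3 cytokine injections were measured on 6 arrays from mice given a cytokine against 6 arrays from mice given phosphate-buffered saline (PBS), which together are all 12 arrays of the series. An array belonged to the cytokine side if its label names interleukin-6 (IL-6) or interferon-γ (IFN-γ) as the injection, and to the other side if it names PBS, so no measured value decided membership. Each side was made of 3 genotypes with 2 arrays each. Cre-negative mice, the controls, were labelled albumin-cre(-) Socs3(w/fl), with 1 wild-type and 1 floxed Socs3 allele and no Cre, and received PBS or IL-6. Cre-positive mice, meant to lack Socs3 in hepatocytes, were labelled albumin-cre(+) Socs3(-/fl), with 1 null and 1 floxed allele and a Cre recombinase driven by the albumin promoter, which is active in hepatocytes, and also received PBS or IL-6. In these mice the null allele is present in every cell, whereas the floxed allele is removed where Cre acts. Ifng-null mice were labelled Interferon-gamma-/-, lack the gene for IFN-γ in all cells, and received PBS or IFN-γ. All injections were intraperitoneal and livers were taken after 4 h, and doses and ages were not given in the sources used here. Total liver RNA was read on an Affymetrix mouse array, which reports 1 brightness value (intensity) for each probe set, a group of short probes for one transcript.

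IL-6 and IFN-γ act through different receptors. IL-6 binds its receptor together with gp130 and activates mainly the transcription factor STAT3, which in hepatocytes drives the acute phase proteins of blood plasma. IFN-γ turns on genes for guanylate-binding proteins, immunity-related GTPases, chemokines and the antigen presentation machinery. SOCS3 is an inhibitor that binds gp130 and limits IL-6 signalling in time. Many interferon-inducible genes carry a GAS element or an interferon-stimulated response element (ISRE) in their promoters.

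The promoters of the genes with the largest rise common to all genotypes are shown first, because interferon-inducible genes were among the largest of these rises. Genes were ordered by the smallest of their within-genotype changes, and the first 4 with a promoter in the RefSeq table were taken. Each line gives the 250 bases before the start of the transcript, 5′ to 3′ on the gene's strand, in build GRCm38.p6, with ISRE cores in capitals.
Isg15, chr4:156200819-156201068 (minus strand): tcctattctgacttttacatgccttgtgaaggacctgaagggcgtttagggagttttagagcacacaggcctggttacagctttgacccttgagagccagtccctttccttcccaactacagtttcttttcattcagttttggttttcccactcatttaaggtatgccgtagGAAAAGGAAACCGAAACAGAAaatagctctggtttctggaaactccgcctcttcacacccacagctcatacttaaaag
Ifit1, chr19:34640639-34640888 (plus strand): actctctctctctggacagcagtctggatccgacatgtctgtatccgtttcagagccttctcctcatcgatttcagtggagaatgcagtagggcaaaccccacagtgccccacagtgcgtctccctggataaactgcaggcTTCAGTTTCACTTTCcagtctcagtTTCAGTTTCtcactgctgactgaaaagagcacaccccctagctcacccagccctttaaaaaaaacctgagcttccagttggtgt
Saa3, chr7:46715677-46715926 (minus strand): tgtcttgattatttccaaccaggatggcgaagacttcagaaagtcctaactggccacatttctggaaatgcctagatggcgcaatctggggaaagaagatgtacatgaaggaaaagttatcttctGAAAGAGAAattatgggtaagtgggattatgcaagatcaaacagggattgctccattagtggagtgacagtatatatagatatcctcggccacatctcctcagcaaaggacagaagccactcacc
Ifi47, chr11:49076337-49076586 (plus strand): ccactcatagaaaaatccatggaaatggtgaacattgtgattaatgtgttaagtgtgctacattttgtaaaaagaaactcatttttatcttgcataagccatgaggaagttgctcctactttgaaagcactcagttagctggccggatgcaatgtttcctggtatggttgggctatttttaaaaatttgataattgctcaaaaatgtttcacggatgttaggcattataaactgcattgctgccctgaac
Isg15 encodes a ubiquitin-like protein that is attached to other proteins, and its window held 3 overlapping ISRE cores, of the letters GAAANNGAA read on either strand. The Ifit1 window, upstream of a gene for a protein that binds viral RNA, also held 3, which read on the opposite strand. The window of Saa3, a serum amyloid A gene, held 1, and that of Ifi47, an immunity-related GTPase gene, held none. Over a window reaching also 50 bases past the start, an ISRE core was present in 22.9% of 109 promoters of genes called higher (91 of 102 genes were matched by symbol) and in 5.56% of 36 promoters of genes called lower (29 of 35 matched). The share was 7% of 7133 promoters over all genes tested. A GAS core, TTCNNNGAA, was present in 13.8%, 2.78% and 6.63% of these promoters, and an NF-κB core, GGGANTTTC, in 0.917%, 2.78% and 0.995%. A match is only a run of letters within a window and does not show that a factor binds there, and ISRE and GAS cores can overlap.

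Several arrays stood apart, in part on probe sets that the test below had called. The median intensity was even, between 80.6 and 85.7 over the arrays. Socs3 itself read 78.8 and 88.2 in Cre-negative and 60.8 and 52.6 in Cre-positive mice after PBS on one probe set. On the other, brighter one it read 124 and 117 in Cre-negative and 76.8 and 74.4 in Cre-positive mice. Neither Socs3 probe set passed the limma test across the injections (log2 0.17 and 0.20, adjusted p = 0.505 and 0.472). Ifng read at most 7.81 on any array, also in mice that carry the gene, so the array does not check that genotype. Pancreatic acinar genes were high on one PBS array of the Cre-negative and one of the Cre-positive mice, where the summed intensity of 14 markers was 10272 and 24871 against 2112 to 2561 on the other arrays. The erythroid marker sum ranged from 1989 to 8734 on the PBS arrays and from 1542 to 5533 on the cytokine arrays, and was higher on replicate 2 in each of the 6 groups. IL-6 replicate 2 of the Cre-negative mice was the cytokine array with the lowest value for 90 of the 114 probe sets that rose, and the PBS arrays with the highest value were those of the Cre-positive mice for 40 (replicate 1) and 47 (replicate 2) of them. Nothing in the labels states that the 2 arrays of a group came from different mice, and each p-value is then about array-to-array spread alone.

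The shared calls were mainly rises in the main fit, but not in every setting. A fit that weighted the arrays gave 137 rises and 173 falls. Of 9641 probe sets tested, 114 rose, which is 1.18%, and 37 fell, which is 0.384% (limma, Benjamini-Hochberg adjusted p under 0.05). The values were log2 intensities with a floor of 33.0, below which an intensity was set to 33.0, and the fit gave every genotype its own level and all of them 1 cytokine change. Changes are therefore mean log2 differences, cytokine minus PBS, over 6 against 6 arrays, and are understated for genes near the floor. The probe sets that rose covered 102 genes with a single symbol and 8 probe sets without one, and those that fell covered 35 genes and 2 probe sets without one. The rises were also larger, with 44 of the 114 above 2-fold and 2 of the 37 falls. The median change was 0.79 among the rises and -0.40 among the falls, against -0.02 over all probe sets tested.

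All 114 rises were positive in each genotype and all 37 falls were negative in each, while 14.1% of all probe sets tested were positive and 21.5% negative in all 3 genotypes. In 98 of the rises and 33 of the falls the arrays did not overlap within any genotype, meaning that both cytokine arrays lay beyond both PBS arrays. Such a separation was seen upward in 1.96% and downward in 1.62% of all probe sets tested. The calls were made on these same arrays, which favours agreement in sign and separation, so neither is separate support. Separation across genotypes was rarer, and in 27 of the rises and 8 of the falls all 6 cytokine arrays lay beyond all 6 PBS arrays. Over all probe sets tested this held upward for 35 (0.363%) and downward for 28 (0.290%), so 8 of the 28 downward ones were called.

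The size of the shared changes is given for each genotype, without a test of the medians. IFN-γ was injected only in Ifng-null mice, so its change and that genotype cannot be told apart, whereas Cre-negative and Cre-positive mice received the same IL-6 injection. Among the rises the median change was 0.51 for IL-6 in Cre-negative mice, 1.01 for IL-6 in Cre-positive mice and 0.86 for IFN-γ in Ifng-null mice, and among the falls it was -0.29, -0.48 and -0.38. The smallest change belonged to Cre-negative mice for 85 of the 114 rises and 29 of the 37 falls. Tested alone, with all 6 group means in the fit, IL-6 in Cre-negative mice gave 0 calls by limma (248 probe sets at an unadjusted p under 0.05), IL-6 in Cre-positive mice called 1.17% and IFN-γ called 0.653% of probe sets. Of the 151 shared calls, 59 were also called with IL-6 in Cre-positive mice, 44 with IFN-γ, 34 with both, and 82 in no genotype alone. Across probe sets the change in Cre-negative mice correlated with that in Cre-positive mice at r = 0.445 and with that after IFN-γ at r = 0.455, and the latter pair correlated at r = 0.587. Rank correlations of the same pairs were lower, at 0.186, 0.228 and 0.439. These are a description over genes that are not independent, between comparisons that share no array.

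**Figure D1:**
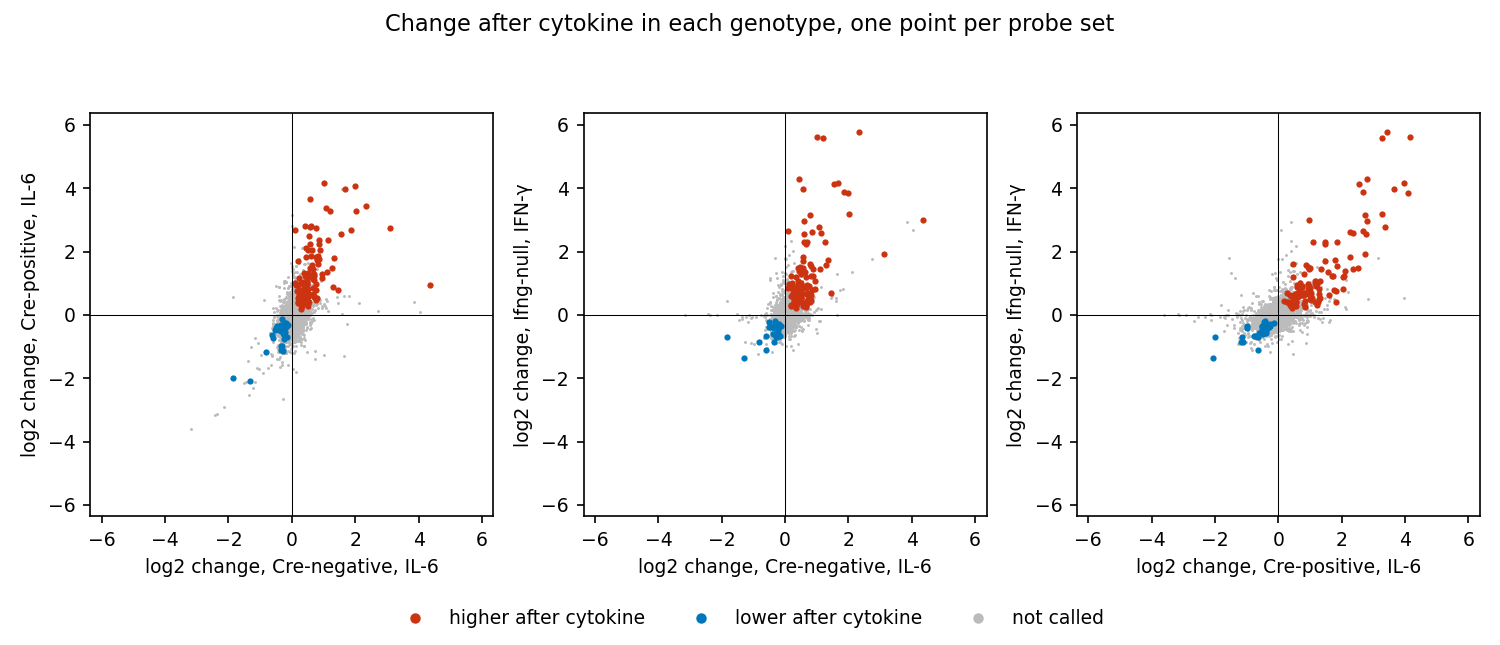
Log2 change, cytokine minus PBS, in one genotype against another, with one point per probe set tested (9641). Red points are the 114 probe sets called higher and blue points the 37 called lower, all with the same sign on both axes of each panel, and the red points lie farther from 0 along the Cre-positive and Ifng-null axes than along the Cre-negative axis.

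The largest rises were in guanylate-binding proteins, immunity-related GTPases and other genes that interferons induce. The list of genes inducible by IFN-γ had 31 tested members, of which 16 rose and 0 fell (median change 0.96), and the list for type I interferons had 21, of which 9 rose and 0 fell (median 0.83). Each gene is counted by its brightest probe set, and dimmer ones of Tapbp and Wars, a tRNA synthetase gene, both on the IFN-γ list, also rose. Over all 6976 genes tested, 95 rose and 29 fell and the median was -0.02. Because livers were measured whole, a higher level per cell and a larger number of expressing cells cannot be told apart. The macrophage and Kupffer cell markers gave no call (0 of 18 called, median 0.07, summed intensity 3768 to 5500 after PBS and 3722 to 7234 after cytokine), and neither did those of T and NK cells (0 of 8 called, median 0.03).

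Gbp2, a guanylate-binding protein that acts against intracellular microbes, had the largest shared change among named genes, 12.1-fold (log2 3.59 ± 0.65, adjusted p = 0.0225). It read 43.8 and 50.3 after PBS and 144 and 61.3 after IL-6 in Cre-negative mice. In Cre-positive mice it read 206 and 53.1 after PBS and 1454 and 2381 after IL-6, and in Ifng-null mice 49.6 and 49.1 after PBS and 2591 and 2298 after IFN-γ. The arrays separated within each genotype, but the IL-6 arrays of Cre-negative mice lay below PBS replicate 1 of the Cre-positive mice. The related Gbp7 and Gbp3 rose by 2.23 ± 0.36 and 2.13 ± 0.34 on the log2 scale (adjusted p = 0.0151 and 0.0149), with changes of 0.77, 2.74 and 3.17 for Gbp7 in Cre-negative, Cre-positive and Ifng-null mice.

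The immunity-related GTPases attack the vacuoles in which parasites and bacteria live, and their genes rose together. Iigp1 had the smallest adjusted p among the named genes (brighter probe set, log2 1.31 ± 0.13, adjusted p = 0.00415), and read 2289 and 1782 after PBS against 5695 and 3328 after IL-6 in Cre-negative mice. Its values were 2279 and 3091 against 6211 and 7378 in Cre-positive and 2311 and 2303 against 6324 and 6373 in Ifng-null mice, so every cytokine array was above every PBS array. The changes were 1.11, 1.35 and 1.46 in the order Cre-negative, Cre-positive and Ifng-null. Irgm1 read 86.7 and 69.5 against 227 and 128, 105 and 111 against 476 and 649.7, and 74.6 and 106 against 412 and 685 in the same order, again without overlap over all 12 arrays (log2 2.03 ± 0.25, adjusted p = 0.00779). Igtp rose 6.71-fold (log2 2.75 ± 0.39, adjusted p = 0.00962) and Ifi47 rose by 2.81 ± 0.38 on the log2 scale (adjusted p = 0.00883), and Irgm2 rose by 1.58 (adjusted p = 0.0149).

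Chemokine and peptide presentation genes of the IFN-γ list followed. Cxcl9, a chemokine that attracts activated T cells, read 37.1 and 35.1 against 138 and 50.6 in Cre-negative mice, 138 and 43.8 against 934 and 612 in Cre-positive mice and 36.6 and 36.1 against 1688 and 1771 in Ifng-null mice (log2 3.36 ± 0.60, adjusted p = 0.0224). Its IL-6 replicate 2 in Cre-negative mice lay below PBS replicate 1 of the Cre-positive mice. Tap1, which carries peptides into the endoplasmic reticulum, rose 3.76-fold (log2 1.91 ± 0.26, adjusted p = 0.00949) with PBS arrays at 127, 150.1 and 159 and cytokine arrays at 179.9, 745 and 985 (lowest, median and highest). A dimmer Tap1 probe set had a change of -0.06 and was not called. The subunits of the immunoproteasome, which cuts proteins into peptides for presentation, rose as well, Psmb9 by 1.45, Psmb8 by 1.25 and Psmb10 by 0.96 on the log2 scale (adjusted p = 0.0149, 0.0153 and 0.0176).

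Few other genes of the presentation machinery passed the test. On the list of MHC class I, peptide loading and proteasome genes, the 4 called of 20 were Tap1 and the immunoproteasome subunits. They made up 20% of the list, against 1.36% of all genes tested that rose, and the median of the list was 0.05. Tapbp (tapasin), which holds MHC class I at the peptide transporter, is on the list through its brightest probe set, which was not called (0.30, adjusted p = 0.207). Another Tapbp probe set, named here after its values were seen, rose by 0.74 ± 0.13 (adjusted p = 0.0205) without overlap in any genotype. B2m, the light chain of MHC class I, had a change of 0.00, H2-K1 of 0.05 and H2-D1 of 0.04, while the constitutive subunits Psmb5, Psmb6 and Psmb7 that the immunoproteasome subunits replace had changes of -0.05, -0.04 and -0.12. Of 12 MHC class II genes 0 were called (median 0.10), which is near the share over all genes tested. Among other chemokines, cytokines and adhesion genes only Icam1, an adhesion molecule for leukocytes, joined Cxcl9 (2 of 27 called, log2 0.95 ± 0.19, adjusted p = 0.0367). Icam1 changed by 0.77, 0.47 and 1.61 in Cre-negative, Cre-positive and Ifng-null mice. It overlapped in Cre-positive mice, at 37.0 and 55.2 after PBS and 52.9 and 74.0 after IL-6. Both PBS arrays of the Cre-negative mice lay under the floor, at 29.0 and 28.5.

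Antiviral genes that type I interferons induce rose as well. Isg15 read 182 and 161 after PBS and 1635 and 299 after IL-6 in Cre-negative mice, 539 and 332 and 3875 and 4324 in Cre-positive mice, and 268 and 344 and 2406 and 3122 in Ifng-null mice (7.09-fold, log2 2.83 ± 0.36, adjusted p = 0.00779). Each genotype separated, but the lower IL-6 array of the Cre-negative mice was below 3 PBS arrays of the other genotypes. Ifit1 read 58.9 and 52.4 against 426 and 116, 529.7 and 67.8 against 3448 and 2984, and 88.2 and 108 against 1176 and 1656 (9.89-fold, log2 3.31 ± 0.52, adjusted p = 0.0149), and its PBS replicate 1 in Cre-positive mice was above both IL-6 arrays of Cre-negative mice. Ifit3, Rsad2 (viperin, which blocks viral replication) and Usp18 (which removes Isg15 from proteins) rose 5.30-fold, 6.65-fold and 3.91-fold (adjusted p = 0.016, 0.0225 and 0.0149). Irf7, a transcription factor of the interferon response, rose by 1.25 and Ifih1, a sensor of viral RNA, by 1.39 on the log2 scale (adjusted p = 0.00962 and 0.00883). All 21 genes of this list had a positive change, 18 of them in each genotype, and the medians were 0.24 in Cre-negative, 1.62 in Cre-positive and 1.03 in Ifng-null mice. Gm9706, named only by its model number in the annotation, rose 9.62-fold (adjusted p = 0.0147), and its probe set name carries the mark of probes shared with related sequences.

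**Figure D2:**
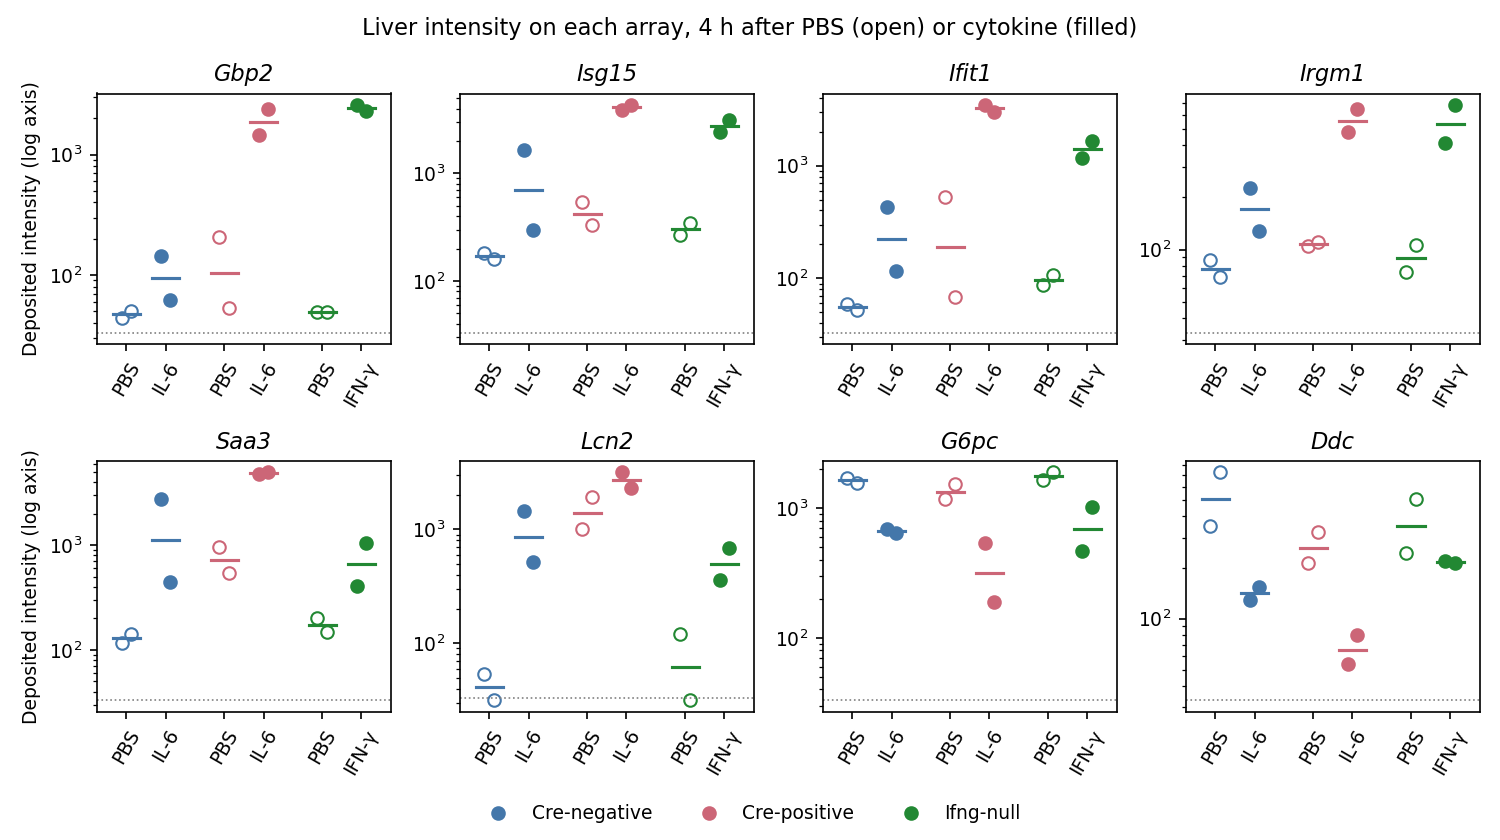
Deposited intensity on a log axis for 8 genes, with open points for PBS arrays and filled points for cytokine arrays (2 per group), a short bar at the geometric mean, and a dotted line at the floor of 33.0. In each genotype the filled points of the 6 genes in the first 6 panels lie above the open ones and those of G6pc and Ddc below, and the steps of Gbp2 and Ifit1 in Cre-negative mice are smaller than in the other genotypes.

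For a few genes the change differed between the 3 genotype and injection combinations. A limma F test of that difference, which cannot assign it to the genotype or the injection, called 0.0830% of probe sets, which is 8 (311 at an unadjusted p under 0.05), and 7 of them had a gene symbol. Cmpk2, a mitochondrial nucleotide kinase gene next to Rsad2, changed by 0.10, 2.67 and 2.66 in Cre-negative, Cre-positive and Ifng-null mice (F test adjusted p = 0.00644). Samhd1, which breaks down nucleotides, changed by 0.42, 2.80 and 4.29 (F test adjusted p = 0.00812) and Gbp3 by 0.59, 2.81 and 2.97 (adjusted p = 0.0158). These 3 genes also passed the test of the shared change. Cmpk2 nevertheless overlapped in Cre-negative mice, at 43.2 and 45.5 after PBS and 51.3 and 44.3 after IL-6. For the other 4 genes the shared change did not pass the test. Mx1 read 205 and 265 after IL-6 in Cre-positive mice and 41.1 and 54.2 after IFN-γ, and was below the floor on the other arrays, so its changes of 2.82 and 0.52 are lower bounds (adjusted p = 0.00470). Ifit2 was also below the floor in Cre-negative mice and reached 403 and 328 and 109 and 129.9 in the other 2 genotypes. Irf8, a transcription factor induced by IFN-γ, changed by 0.14, 0.24 and 1.88, and Uck2, a uridine-cytidine kinase, by 0.32, 2.10 and 0.23. A gene that missed this test is not thereby shown to respond alike, and for Gbp2 the changes of 1.001, 4.15 and 5.63 had an adjusted p of 0.317.

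A smaller share of acute phase genes than of interferon genes was called. Of 26 measured positive acute phase genes, 3 rose (11.5%) and 0 fell, against 51.6% rising on the IFN-γ list and 1.36% over all genes tested. The median change was 0.41, with 0.63 in Cre-negative, 0.11 in Cre-positive and 0.22 in Ifng-null mice, and 23 of 26 changes were positive. In the same order the IFN-γ list had medians of 0.40, 0.99 and 1.59, so the acute phase median was the higher in Cre-negative mice. After PBS the mean log2 level of the acute phase list was 10.1 and 9.66 in Cre-negative and 10.8 and 11.1 in Cre-positive mice. The part of that level in the small Cre-positive change was not tested. Saa3 read 117 and 140.4 after PBS and 2786 and 442 after IL-6 in Cre-negative mice, 969 and 544 and 4809.5 and 4948 in Cre-positive mice, and 202 and 147 and 409 and 1051 in Ifng-null mice (6.04-fold, log2 2.60 ± 0.41, adjusted p = 0.0149). The genotypes each separated, while the PBS arrays of Cre-positive mice stood above 1 IL-6 array of Cre-negative mice. Lcn2, which binds bacterial iron carriers, read 53.5 and 31.6 against 1454 and 514, 1006 and 1907 against 3157 and 2288, and 120.3 and 31.8 against 359 and 692 (log2 2.77 ± 0.54, adjusted p = 0.0361). Its PBS values in Cre-positive mice overlapped the IL-6 values of Cre-negative mice, 1 Cre-negative and 1 Ifng-null PBS array lay under the floor, and a dimmer Lcn2 probe set had a change of 0.09. Lcn2 is also on the neutrophil marker list, which had no other called gene among 10. Il1rn, the receptor antagonist of IL-1, rose by 0.80 ± 0.17 on the log2 scale (adjusted p = 0.0459).

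Other classical acute phase genes did not pass the test, and their values by genotype differed. Saa2 changed by 2.73, 0.13 and 1.77 in Cre-negative, Cre-positive and Ifng-null mice, Serpina3n by 1.81, 0.61 and 0.83 and A2m by 1.60, 3.97 and 0.52 (shared adjusted p = 0.257, 0.0553 and 0.131). The lipopolysaccharide-binding protein Lbp just missed the threshold (0.64, adjusted p = 0.051). The metallothioneins Mt1 and Mt2, which bind zinc and copper, had large but uneven changes of 4.04, 0.09 and 2.69 for Mt1 and 3.84, 0.39 and 2.93 for Mt2 (adjusted p = 0.163 and 0.133), with arrays that did not overlap in any genotype. After PBS the mean log2 level of the metallothionein, iron and haem list was 9.41 and 8.94 in Cre-negative and 10.1 and 10.1 in Cre-positive mice. None of the 17 plasma proteins on the negative acute phase list was called (median -0.10). Complement and coagulation genes gave 0 calls among 31, with a median of -0.10. At the 1.36% of rises and 0.416% of falls over all genes tested, lists of this size can hold 0 calls.

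Some signalling genes passed the test. Of 32 cytokine receptor, JAK, STAT and SOCS genes, 3 rose (9.38%, against 1.36% of all genes tested) and 0 fell. Their median was 0.10. Ptpn1 (PTP1B), a phosphatase that acts on JAK2 and TYK2 and on the insulin receptor, read 181, 304 and 396 on the PBS arrays and 325, 596 and 932 on the cytokine arrays (lowest, median and highest; 2.02-fold, log2 1.01 ± 0.16, adjusted p = 0.0151). In Cre-negative, Cre-positive and Ifng-null mice its changes were 0.94, 1.28 and 0.81, and those of Tnfrsf1a, the type 1 receptor for TNF, were 0.77, 0.80 and 0.62 (1.66-fold, log2 0.73 ± 0.11, adjusted p = 0.0127). A dimmer Tnfrsf1a probe set had a change of 0.07 and was not called. Ptpn2 (TC-PTP), which acts on JAK1 and JAK3, rose by 0.65 ± 0.13 (adjusted p = 0.0373). Socs1 and Socs2 had changes of 0.06, 2.15 and 1.09 and 0.03, 1.45 and 1.75, and neither passed the shared test (adjusted p = 0.35 and 0.153). Stat3 had a change of 0.53 and Osmr, a receptor for oncostatin M, one of 0.53 (adjusted p = 0.103 and 0.053), without overlap in any genotype.

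Of 24 genes of NF-κB and innate sensing, 4 rose (16.7%, against 1.36% of all genes tested) and 0 fell. A positive change was seen in 23, and the median was 0.16. Bcl3, an atypical IκB protein that works in the nucleus, rose by 0.87 ± 0.14, and its PBS arrays read 452, 573 and 746 against 700.1, 958 and 1890.5 on the cytokine arrays (lowest, median and highest). Myd88, the adaptor of Toll-like and IL-1 receptors, rose by 0.87 ± 0.13, Nfkbib by 0.34 ± 0.07 and Rela, the p65 subunit of NF-κB, by 0.30 ± 0.06. The adjusted p-values of these 4 genes were 0.0149, 0.0147, 0.0361 and 0.0372. The immediate-early list had 1 rise and 1 fall among 36 genes (2.78% each, against 1.36% and 0.416% of all genes tested). Jund rose by 0.38 ± 0.08 (adjusted p = 0.0375), with changes of 0.36, 0.45 and 0.34. Dusp6, a phosphatase that switches off ERK, read 164 and 169 against 106 and 83.0, 120.0 and 243 against 88.8 and 64.8, and 198 and 168 against 89.5 and 113, a fall of 1.93-fold (log2 -0.95 ± 0.16, adjusted p = 0.0201) in which each cytokine array lay under each PBS array.

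In the main fit the falls were fewer and smaller than the rises, and G6pc had the largest of them among named genes. G6pc, the catalytic subunit of glucose-6-phosphatase that releases glucose from the liver, fell 2.99-fold (log2 -1.58 ± 0.26, adjusted p = 0.0176). It read 1711 and 1569 after PBS and 682 and 641 after IL-6 in Cre-negative mice, 1164 and 1521 and 533 and 187 in Cre-positive mice, and 1629.8 and 1877 and 462 and 1017 after PBS and IFN-γ in Ifng-null mice. All 6 cytokine arrays were below all 6 PBS arrays, and the change exceeded 2-fold in each genotype (-1.31, -2.07 and -1.35), which held for no other fall. G6pc was the only one of 14 glucose metabolism genes called, and Pck1, the other enzyme specific to glucose production named here, changed by 0.12, -1.80 and 0.32 (adjusted p = 0.856). The glucose transporter Slc2a2 had a change of -0.62 (adjusted p = 0.126).

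Ddc, the decarboxylase that makes dopamine and serotonin, read 353 and 728 against 129 and 154 in Cre-negative mice, 212 and 325 against 53.8 and 79.8 in Cre-positive mice and 244 and 509 against 218 and 212 in Ifng-null mice (2.87-fold lower, log2 -1.52 ± 0.27, adjusted p = 0.0225). The IFN-γ arrays lay just under the lower PBS array of their genotype. Fam107b fell by 0.79 ± 0.11 on the log2 scale (adjusted p = 0.00883), with PBS arrays at 249.9, 347 and 388 and cytokine arrays at 143, 177 and 268. Gpam, which starts triglyceride synthesis, fell by 0.71 ± 0.14 (adjusted p = 0.0379) and was the 1 gene called among 23 of cholesterol and fatty acid synthesis. The next falls were Fbxo21 (-0.77), Lactb2 (-0.56), Anp32a (-0.53) and Vcl (-0.51), with adjusted p between 0.0218 and 0.0432. Other probe sets of the last 3 genes were not called, with changes of -0.32 for Lactb2, -0.34 for Anp32a and -0.11 for Vcl. Those of Lactb2 and Anp32a were brighter than the called ones, and that of Anp32a changed by 0.72 in Cre-negative mice. Smaller falls that were even between genotypes came from Tmem150a (-0.40, -0.48 and -0.59), Pnkd (-0.50, -0.41 and -0.38), Fgf1 (-0.48, -0.36 and -0.37), Mpzl2 (-0.38, -0.34 and -0.37) and Fam3c (-0.35, -0.51 and -0.35), though another Pnkd probe set had a change of -0.08. A brighter Fam3c probe set was not called (limma adjusted p = 0.13), with changes of -0.55, -0.40 and -0.22.

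**Figure D3:**
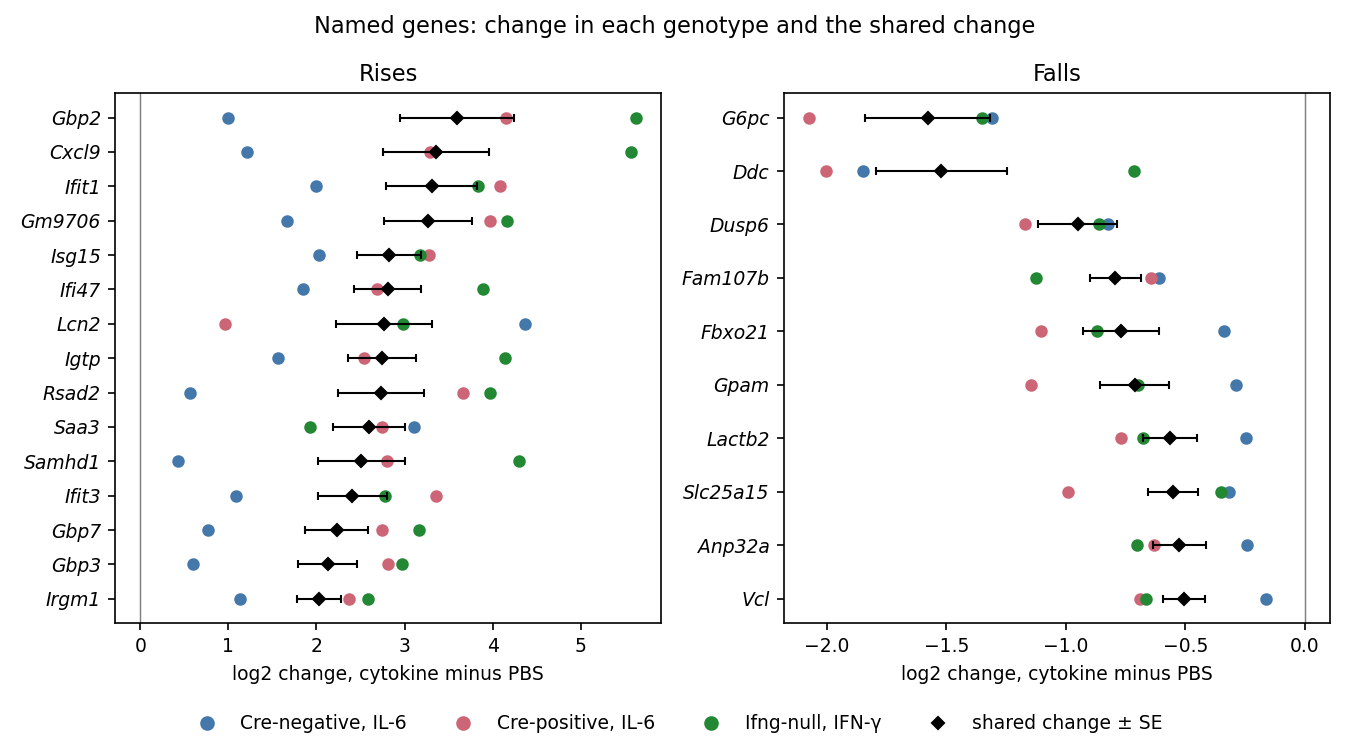
Log2 change, cytokine minus PBS, for the 15 largest rises and 10 largest falls with a gene symbol, as one coloured point per genotype and a black diamond for the shared change ± SE. Cre-negative mice (blue) have the smallest rise for most interferon genes and the largest for Lcn2 and Saa3, and G6pc has 3 points beyond -1.

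Genes of the urea cycle and amino acid breakdown mostly had a negative change. Of 23 such genes 2 fell (8.70%, against 0.416% of all genes tested) and 0 rose. A negative change was seen in 22, and in 19 it was negative in each genotype. The median was -0.31 (-0.12 in Cre-negative, -0.48 in Cre-positive and -0.28 in Ifng-null mice). Slc25a15, the mitochondrial ornithine carrier, read 1851 and 1838 against 1426 and 1539.8, 2051 and 1961 against 970.5 and 1049, and 1395 and 1459 against 1121 and 1115 (log2 -0.55 ± 0.10, adjusted p = 0.0265). Cps1, the first enzyme of the urea cycle, fell by 0.31 ± 0.06 (adjusted p = 0.0367) and was the 1 called of 12 hepatocyte markers, 11 of which had a negative change (median -0.14, summed intensity 70731 to 78088 after PBS and 63476 to 73460 after cytokine). Tat, which starts tyrosine breakdown, had a change of -0.65 and Hal, which starts histidine breakdown, one of -0.61 (adjusted p = 0.0955 and 0.106). The part of the lower hepatocyte marker sum in these values was not tested.

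Drug metabolism, lipid oxidation and regulators gave no shared call. Over all genes tested 1.36% rose and 0.416% fell, so lists of this size can hold 0 calls at that share. Of 26 cytochrome P450 genes 22 had a negative change (median -0.11), and of 25 conjugation and transporter genes also 22 (median -0.18). Cyp7a1, the rate-limiting enzyme of bile acid synthesis, had a change of -0.88 (adjusted p = 0.232) with a spread from 70.1 to 310.1 over the PBS arrays. There were likewise 0 calls among 22 fatty acid oxidation, 28 nuclear receptor and liver transcription factor, 17 circadian clock, 19 growth hormone axis, 24 heat shock and 29 cell cycle genes. Over all 6976 genes 41.6% had a positive change, against 15.4% of the cytochrome P450 and 12% of the conjugation and transporter genes. The cause of these lower shares was not tested. The caspase and death receptor list had 1 rise in 23, Casp8, the starter caspase of death receptors (log2 0.47 ± 0.10, adjusted p = 0.0492). Krt18, a keratin made by hepatocytes and bile duct cells, rose 1.67-fold (log2 0.74 ± 0.11, adjusted p = 0.0147), with values of 369.6, 529 and 682 after PBS and 551, 885 and 1131 after cytokine, and was the 1 called of 7 bile duct markers (median 0.04).

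**Figure D4:**
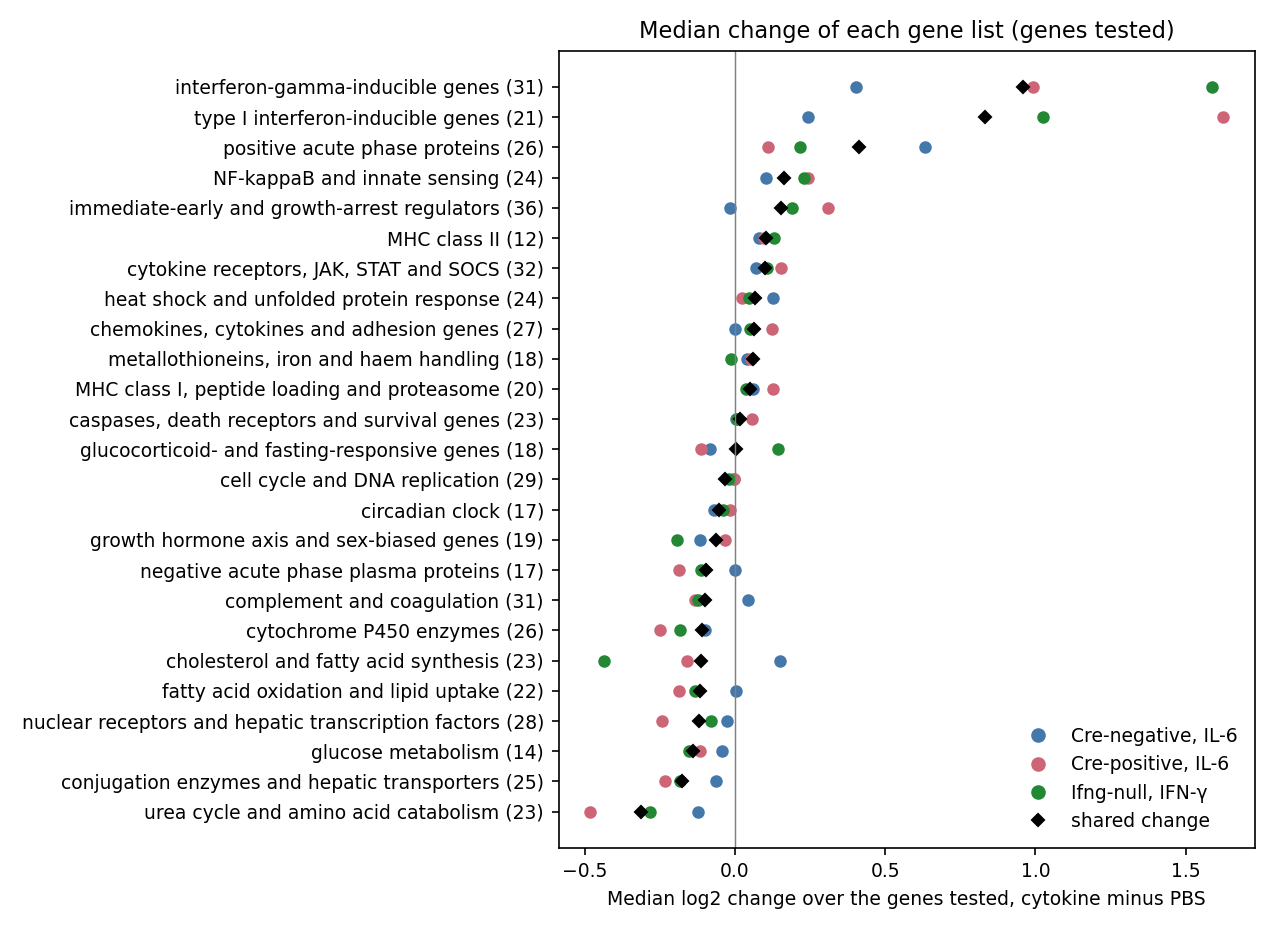
Median log2 change, cytokine minus PBS, over the tested genes of each of 25 gene lists (number in brackets), with one coloured point per genotype and a black diamond for the shared change. The interferon lists stand at 0.96 and 0.83, the positive acute phase list at 0.41, and the urea cycle and amino acid list is lowest at -0.31.

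Other cell types gave no call to set beside these groups. With 1.36% of all genes tested rising and 0.416% falling, 0 calls in such short lists is near that share. Endothelial (11 genes), stellate and fibroblast (14), B and plasma cell (9), adipocyte and muscle (7) and erythroid (11) markers had 0 calls and medians between -0.05 and 0.01. The 14 pancreatic acinar genes all had a negative change (median -0.94) with 0 calls, and the high values were on the 2 PBS arrays named above.

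The calls depended on the arrays of the Cre-positive and of the Ifng-null mice. Without the Cre-negative mice 83 probe sets rose and 26 fell, and these held 65 of the 114 rises and 9 of the 37 falls. Without the Cre-positive mice or without the Ifng-null mice limma called 0 probe sets (681 and 976 at an unadjusted p under 0.05). Without the 2 arrays with high pancreatic signal 32 rose and 27 fell, but these held only 31 of the 114 rises and 8 of the 37 falls. Of 49 named calls 30 were lost in that fit, among them G6pc, Gbp2, Cxcl9, Ddc, Lcn2, Saa3 and Ptpn1. Without the filter on low values 0 probe sets were called (1231 at an unadjusted p under 0.05). The count of rises fell by over 1.5 times when any of 8 arrays was left out, to 58 without IL-6 replicate 1 of the Cre-negative mice, 55 and 51 without IL-6 replicates 1 and 2 of the Cre-positive mice, 41 and 55 without their PBS replicates, 52 and 49 without PBS replicates of the Ifng-null mice and 43 without IFN-γ replicate 2. The count of falls ranged from 4 to 106 over all arrays left out. Of the 49 named genes that were called, 19 kept their call whichever single array was left out. Of these, Iigp1, Irgm1, Isg15, Ifit1, Tap1, Tnfrsf1a and Fam107b were among those that also kept it without the 2 pancreatic arrays. Every call in that fit lay just under the threshold of 0.05. Bcl3, Myd88, Psmb8, Psmb9, Ptpn1 and Saa3 did not keep their call in it. G6pc lost it without PBS replicate 1 of the Cre-positive mice, and Gbp2, Cxcl9, Ddc and Lcn2 lost it in 7, 7, 6 and 9 of the 12 fits. With the same-numbered arrays of a genotype as a pair (replicate block within genotype, chosen after seeing the data) 96 rose and 38 fell, of which 73 and 17 were among the 114 and 37. In that fit 20 named calls were lost, with limma adjusted p = 0.0684 for Gbp2, 0.0571 for Cxcl9, 0.051 for Gbp3, 0.0686 for Rsad2, 0.0739 for Lcn2 and 0.052 for Dusp6. The others were Anp32a, Casp8, Cmpk2, Cps1, Fbxo21, Fgf1, Gpam, Icam1, Il1rn, Lactb2, Nfkbib, Samhd1, Slc25a15 and Vcl. No named change that was called turned its direction in any alternative.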

How the data were processed

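Livers were profiled on 12 arrays. The authors deposited 1 linear intensity per probe set and array in the series' value table, and the software, background correction and scaling behind it are not given in the sources used here. Values were used as deposited. Of 12488 probe sets, 66 controls were left out, the 25th percentile of all values (33.0) served as a floor, log2 was taken, and the 9641 probe sets above that floor on at least 2 arrays were tested. The platform annotation gives 1 gene symbol for 10855 probe sets, several for 396 and none for 1237. No gene was named from several, and a gene with several probe sets entered its list through the brightest.

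limma 3.58.1 in R 4.3.3 fitted genotype plus cytokine (8 residual and 3.24 prior degrees of freedom), so the residual also holds differences between the 3 changes. A second fit with 6 group means (6 and 3.38) gave the changes within a genotype and the F test of their difference. Tests were two-sided, Benjamini-Hochberg adjusted over the probe sets tested, at 0.05, and the code was tested on simulated data.

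The genes and the 36 lists were chosen with earlier results of these data known, so they are described by counts and medians and support nothing by themselves. Named genes were Socs3 and Ifng, called genes with the 15 largest rises or 10 largest falls, the 10 in each direction with the largest smallest-of-3 change, up to 4 called members of a list or the 2 with the largest change where none was called, genes called in the test between the 3 changes, and genes covered by a count of 5 or fewer. Promoters came from RefSeq GRCm38.p6. Alternatives covered normalization, floor, filter, trend, array weights, the spread of 6 group means, a replicate block, and arrays or genotypes left out. The setting without a floor and the block within genotype were chosen after seeing the data. Replicate numbers were checked for pairing by the correlation of the difference between the 2 arrays of a group. It was above 0.1 within each genotype (0.138 Cre-negative, 0.122 Cre-positive, 0.665 Ifng-null) but not in all 15 pairs of groups (-0.254 to 0.665, median 0.122), and nothing in the labels states a pairing.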

Additional observations from a re-analysis of the deposited data

Results flagged for a closer look

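Within the 6 PBS or the 6 cytokine arrays, 17 values among 184 groups of named genes stood apart from the other 5 by a gap test, which flags about 1 in 20 groups by chance (9.2 here). PBS replicate 1 of the Cre-positive mice was highest for 7 genes: Ccl5 read 73.5 there against 57.6 to 62.3 on the other PBS arrays, Cmpk2 58.5 against at most 48.0, Cxcl9 138 against at most 43.8 and Gbp2 206 against at most 53.1. On the same array Gm9706 read 78.3 against at most 44.0, Ifit1 530 against at most 108 and Ifit2 51.3 against at most 35.1. IL-6 replicate 2 of the Cre-negative mice was lowest of the cytokine arrays for Iigp1 at 3328 (others from 5695) and Isg15 at 299 (others from 1635), and highest for Cyp7a1 at 246 (others to 59.9).

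Cyp7a1 also read 310 on PBS replicate 1 of the Cre-negative mice against at most 120 on the others. In Cre-positive mice, IL-6 replicate 1 stood apart for Alas2 (335, others from 591) and for Cd74 (1366, others to 520), and IL-6 replicate 2 for Ppara (95.4, others from 382). Nfkbib read 367 on PBS replicate 2 of the Cre-positive mice (others to 318), Psmb10 306 on PBS replicate 2 of the Cre-negative mice (others from 417), and Ighm 179 on IFN-γ replicate 2 (others to 164).

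The change differed between the 3 genotype and injection combinations in the limma F test for 7 named genes, with adjusted p = 0.00470 for Mx1, 0.00644 each for Cmpk2, Ifit2 and Irf8, 0.00812 for Samhd1, 0.0158 for Gbp3 and 0.0308 for Uck2.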

How the results depend on the processing

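No named gene that was called changed direction in any alternative, and no shared call was called in the opposite direction in any. The 114 rises and 37 falls, all with 1 sign in each genotype, stayed within 1.5 times (89 to 167 and 27 to 54) under quantile normalization, other floors, the 6-array filter, an intensity trend, the spread of 6 group means and no floor. Array weights gave 137 rises and 173 falls. Without the filter 0 rises and 0 falls were called, with 0.417 prior degrees of freedom against 3.24, and without Cre-positive or Ifng-null mice 0 and 0. Without Cre-negative mice there were 83 and 26, and without the 2 arrays with high Prss2 signal 32 and 27 (31 and 8 of those above). The replicate block over all groups gave 99 rises and 38 falls (93 and 28 of those above) and the replicate block within genotype, chosen after seeing the data, 96 and 38 (73 and 17). Leaving out 1 array gave 41 to 151 rises (41 to 148 with 1 sign in each genotype) and 4 to 106 falls. Those fits give the single array left in a group the spread of the rest, and 36 rises and 2 falls (Amotl2 and Fam107b) were called in all 12.

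Counts without overlap (189 and 156) became 443 and 639 without Cre-negative mice, 355 falls without Cre-positive, 418 and 353 without Ifng-null, 317 and 592 without the high-Prss2 arrays, and 213 to 284 and 192 to 424 with 1 array left out, since fewer arrays separate more easily. The 8 differences between the 3 changes became 4 with the replicate block within genotype, 15 with the 50th percentile floor, 2 without the filter, 0 without Cre-negative, 4 without Cre-positive, 1 without Ifng-null mice, 0 without the high-Prss2 arrays (227 at an unadjusted p under 0.05 by limma), and 0 to 19 with 1 array left out. The cause of the other changes was not tested. Signal near the floor limits genes such as Mx1 and Ifit2 to lower bounds.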

Other observations

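Several genes outside the lists rose with all injections and are given as values, chosen after their values were seen. Plscr1, a phospholipid scramblase, rose by 1.56 ± 0.22 on the log2 scale (limma adjusted p = 0.0109), with 0.87, 2.35 and 1.45 in Cre-negative, Cre-positive and Ifng-null mice. Nampt, which makes the NAD precursor nicotinamide mononucleotide, rose by 1.55 ± 0.30 (adjusted p = 0.0361; 0.58, 2.25 and 1.82). Nmi, a binding partner of STAT proteins, rose by 0.97 ± 0.17 (adjusted p = 0.0212) and Lgals3bp, a secreted glycoprotein that binds galectins, by 0.74 ± 0.09 (adjusted p = 0.00779), the latter with all 6 cytokine arrays above all 6 PBS arrays. Litaf had its largest change in Cre-negative mice (1.45, 0.77 and 0.70; adjusted p = 0.0367). The largest shared change of all, 3.85 on the log2 scale, was on a probe set without a single gene symbol.

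Genes of ribosome assembly in the nucleolus were also among the rises. Nop58 rose by 1.12 ± 0.24, Nop2 by 0.34 ± 0.07, Gnl3 by 0.69 ± 0.12, Noc4l by 0.60 ± 0.13 and Tsr1 by 0.93 ± 0.19 on the log2 scale (adjusted p = 0.0456, 0.0464, 0.0223, 0.0459 and 0.0415). The changes of Nop2 were 0.18, 0.55 and 0.29 and those of Gnl3 0.41, 0.75 and 0.90, and both genes had every cytokine array above every PBS array. These genes were picked from the calls, so their number is not evidence of a theme.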
